A study of Mus musculus with 4 samples.

Results

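Cytosolic ribosomal protein genes encode the proteins of the cytoplasmic ribosome. Members were gene rows whose symbol begins with Rps, Rpl or Rplp followed by a number and at most a short letter suffix, together with Rpsa. The ribosomal S6 kinases (Rps6k), Rps19bp1 and the copies with a "-ps" symbol were left out. The rule found 92 of 55536 genes, 37 of the small subunit and 55 of the large one. The annotation calls 85 of them protein-coding and 7 pseudogenes (Rpl32l, Rpl6l, Rpl37rt, Rps12l1, Rps3a2, Rps3a3 and Rps4l). They lie on 19 chromosomes, with 15 of them on chromosome 7.

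The series holds 1 group of 4 polyA-selected RNA-seq libraries from bone-marrow-derived macrophages of C57BL/6J mice, labelled biological replicates 1 to 4. The cells had been pretreated with lipid A, the membrane anchor of lipopolysaccharide, at 100 ng/ml for 12 h. The agent was then washed out for 12 h and the cells were taken at 0 min of a second stimulation; some label fields name the agent lipoprotein A instead. No untreated group belongs to the series and the labels record neither age nor sex. The 4 replicates carry 1 donor identifier, so every p-value measures only the spread between these libraries, which may be technical. The deposited notes list 4 read files for each of replicates 3 and 4, and 6 for each of replicates 1 and 2. What that number reflects is not known. It is the technical difference used to compare libraries here, so a difference across it is one between pairs of libraries and not between treatments.

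A small subunit (40S) and a large subunit (60S) form each ribosome, and nearly every one of their proteins is present once. Most ribosomal protein mRNAs begin with a 5′ terminal oligopyrimidine (TOP) tract, a C followed by a run of pyrimidines at the cap. Through this tract mTOR signalling and the RNA-binding protein LARP1 set how much of the mRNA is translated. Mammalian ribosomal protein mRNAs have also been copied back into the genome many times as processed pseudogenes. Such copies make it hard to decide which gene a short read came from.

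Short stretches around the start site show the tract on which the TOP class rests. Each of the following runs from 20 bases before to 10 bases after the RefSeq start of the gene on build GRCm38.p6, 5′ to 3′ on the coding strand. Capitals mark a C followed by at least 4 C or T that begins within 5 bases of the annotated start; the tract of Rpl35 runs on past the end of the window. Rps19 and Rps12 are shown because they have no such tract at the RefSeq start.
Rpl35 (chr2:39005122-39005151, minus strand): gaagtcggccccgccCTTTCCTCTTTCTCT
Rps27 (chr3:90213639-90213668, minus strand): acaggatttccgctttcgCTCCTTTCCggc
Rplp2 (chr7:141447631-141447660, plus strand): cccactgcgtcagcgtCTTCCTTTCgccgc
Rps6 (chr4:86857358-86857387, minus strand): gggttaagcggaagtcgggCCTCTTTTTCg
Rpl28 (chr7:4792945-4792974, plus strand): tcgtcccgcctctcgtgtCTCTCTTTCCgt
Rps18 (chr17:33955656-33955685, minus strand): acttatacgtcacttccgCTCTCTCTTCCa
Rps19 (chr7:24884572-24884601, plus strand): agcactccgaaatctcgcgagactcgacgc
Rps12 (chr10:23787200-23787229, minus strand): ttaaataccgtcatgcggccaccgccggcc

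Of the 92 members, 67 matched the RefSeq promoter table by symbol. A tract of this form was found in 31 of the 67 (46.3%), against 21.2% of 27025 genes in the table. Over the 300 bases of each promoter window, read on both strands and with each motif counted on its own, CCGGAAG occurred in 38.8% of members, against 9.93% of all genes. ATGGCG occurred in 31.3% of members, against 10.2% of all genes, and GGGCGG in 59.7%, against 38.2%. These are counts of letters and were not tested. A missing match says only that the letters are not in that window.

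Ribosomal protein genes were abundant in all 4 libraries and spanned more than 4 orders of magnitude. TPM, transcript abundances scaled by the authors for length and for the size of each library, are the level used throughout, taken from the gene tables. The members added up to 35621 and 32308 TPM in replicates 3 and 4, against 39569 and 48145 TPM in replicates 1 and 2 (38911 ± 6835, SD, n = 4). Of the expected gene counts they took 1.10 and 1.02% in replicates 3 and 4, against 1.12 and 1.38% in replicates 1 and 2. The mean reached 1 TPM in 87 of the 92, and 74 kept above 100 TPM in each library.

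The libraries differed in depth and in composition. Gene counts came to 48875472 and 57126810 in replicates 3 and 4, against 25594340 and 27384162 in replicates 1 and 2. The rRNA gene CT010467.1 had 3125 and 3490 TPM in replicates 3 and 4, against 84920 and 10124 TPM in replicates 1 and 2. The mitochondrial genome held 3.34 and 3.00% of counts in replicates 3 and 4, against 0.778 and 1.16% in replicates 1 and 2. With both kinds of gene taken out and TPM rescaled, the members added up to 42229 ± 6244 TPM. Macrophage markers (7 genes) added up to 14763 and 17422 TPM in replicates 3 and 4, against 16420 and 16966 TPM in replicates 1 and 2. The neutrophil list (8 genes) differed inside both pairs, with 70.6 and 6.39 TPM in replicates 3 and 4 and 85.4 and 13.9 TPM in replicates 1 and 2, nearly all from S100a8 and S100a9, while Ly6g and Retnlg stood at 0. The B cell list added up to between 2.55 and 4.21 TPM, and the T and NK, dendritic, fibroblast, mast and erythroid lists to at most 1.16 TPM in any library. In bulk RNA, fewer cells of a type and less RNA per cell cannot be told apart.

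**Figure D1:**
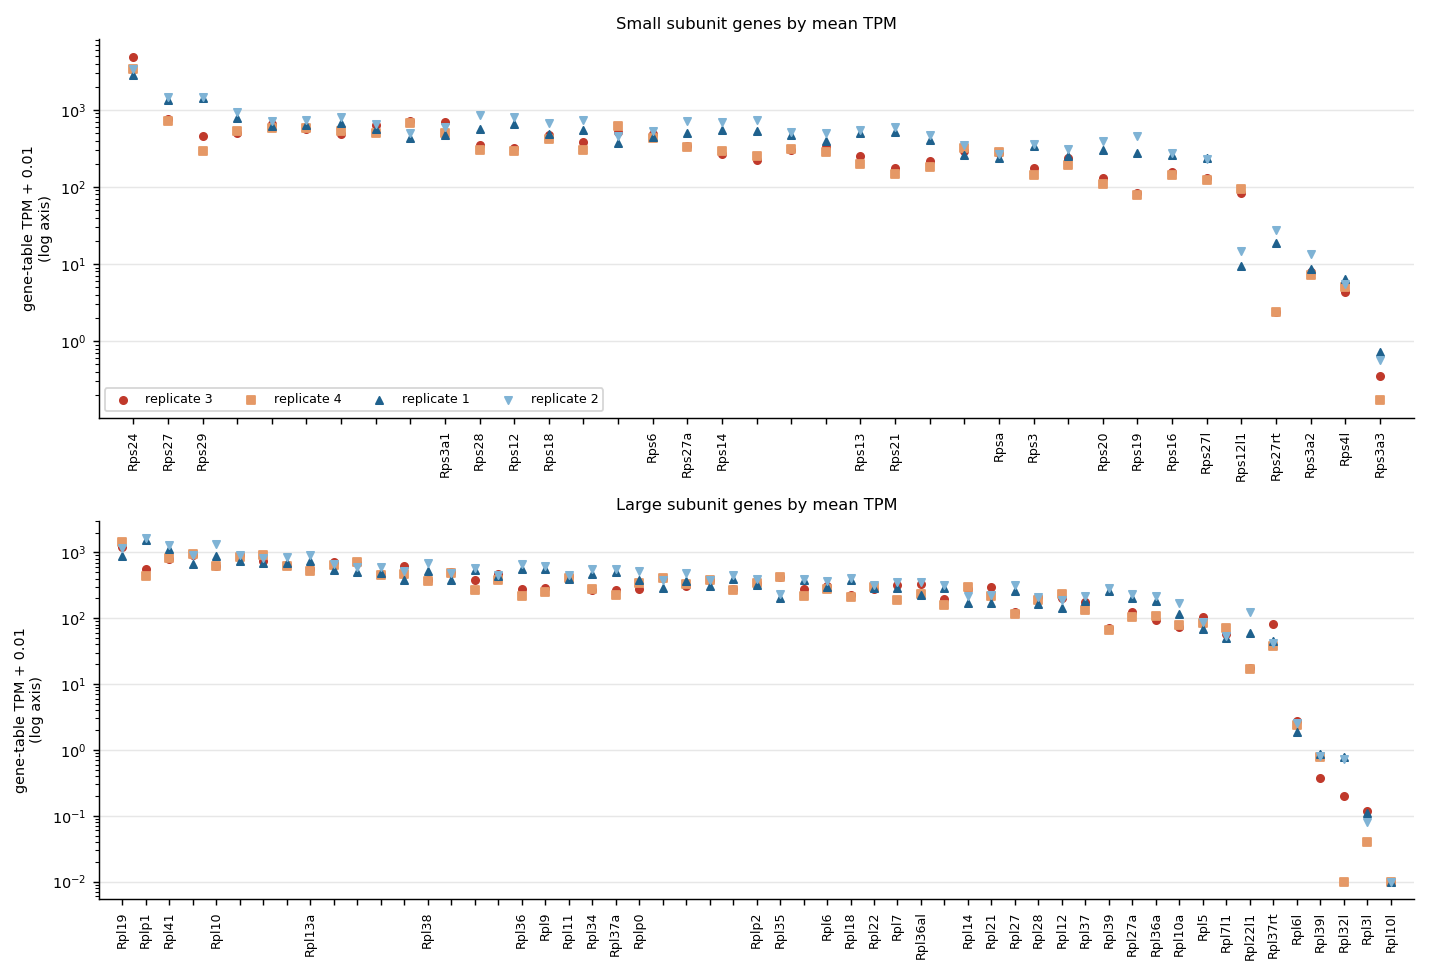
Gene-table TPM of every member in each library, ordered by mean TPM, small subunit above and large subunit below (log axis, 0.01 added so that 0 can be drawn); members named in the text are labelled. Replicates 3 and 4 are red and orange, replicates 1 and 2 dark and light blue; Rps24 stands alone at the top, and the last members of each row fall to or near 0.

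Rps24 was the most abundant member and stood at rank 26 among all genes by mean TPM. Its protein sits on the 40S subunit and acts in the processing of the small rRNA. It had 4916 and 3360 TPM in replicates 3 and 4, against 2834 and 3433 TPM in replicates 1 and 2. The pairs overlapped, and Rps24 took 13.8 and 10.4% of the members' TPM in replicates 3 and 4, against 7.16 and 7.13% in replicates 1 and 2. Of its TPM, 92.4% belonged to 1 short coding transcript, Rps24-201 of 468 bases.

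Rpl19, a large-subunit protein that reaches across to the 40S in a bridge between subunits, had 1215 and 1430 TPM in replicates 3 and 4, against 873 and 1168 TPM in replicates 1 and 2. Rpl41, the shortest protein of the ribosome, had 806 and 811 TPM in replicates 3 and 4, against 1129 and 1281 TPM in replicates 1 and 2. Rpl19 was higher and Rpl41 lower in every library of replicates 3 and 4, though neither passed the test described below. Rps27, a zinc-finger protein of the 40S, had 753 and 723 TPM in replicates 3 and 4, against 1337 and 1463 TPM in replicates 1 and 2. Rplp1, an acidic protein of the stalk that recruits elongation factors, had 563 and 440 TPM in replicates 3 and 4, against 1553 and 1659 TPM in replicates 1 and 2. Rps27 and Rplp1 were lower in both libraries of replicates 3 and 4, without overlap.

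At the other end stood 5 members below 1 TPM in every library. Rpl10l and Rpl3l are paralogs used in testis and in striated muscle, and Rpl39l in testis. Rpl10l had 0 counts in all 4 libraries, which allows up to 0.0614 and 0.0525 CPM in replicates 3 and 4 and up to 0.117 and 0.110 CPM in replicates 1 and 2, a limit of 3 counts per library that covers counting error only. Rpl3l had 3 and 1 counts in replicates 3 and 4, against 2 and 1 counts in replicates 1 and 2. Rpl39l had a mean of 0.695 ± 0.225 TPM, Rps3a3 0.440 ± 0.240 and Rpl32l 0.418 ± 0.381 TPM (SD, n = 4). These levels lie close to the limit of detection in the shallower libraries.

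The members did not vary alike between libraries. Over the 87 with at least 1 TPM on average, the coefficient of variation had a median of 24.6%, lay under 10% in 7 genes and reached 60% or more in 8. Rpl11, a 5S rRNA-binding protein that also restrains Mdm2, was the steadiest at 423 ± 27.6 TPM, a coefficient of 6.53%. Rpl22, which mice need for the development of T cells, followed at 295 ± 19.4 TPM. Rps27rt and Rpl22l1 varied most, at 98.1 and 93.4%. The steadiest and most variable members were singled out after their values were seen.

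Small-subunit members stood slightly above large-subunit members, and by more in replicates 1 and 2. The median log2(TPM + 1) of the small-subunit members exceeded that of the large-subunit members by 0.06 and 0.11 in replicates 3 and 4, against 0.58 and 0.46 in replicates 1 and 2 (0.30 ± 0.26, SD, n = 4). In summed TPM the small subunit had 16604 and 14141 in replicates 3 and 4, against 18906 and 22937 in replicates 1 and 2. The large subunit had 19017 and 18166 TPM in replicates 3 and 4, against 20664 and 25208 TPM in replicates 1 and 2. The median was thus higher in the small subunit and the sum in the large one, which has 55 genes against 37.

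Between the pairs of libraries, many ribosomal protein genes had lower counts relative to library size in replicates 3 and 4. Fold changes in counts are given after scaling for library size, since replicates 3 and 4 were the deeper libraries. Expected counts were compared across all genes with edgeR's quasi-likelihood test and Benjamini-Hochberg adjustment, calling an adjusted p below 0.05. A filter on low counts left 86 of the 92 members; Rps27rt, Rpl39l, Rps3a3, Rpl32l, Rpl3l and Rpl10l were not tested. Of the 86, 28 were lower and 2 higher in replicates 3 and 4. Over all 11991 genes tested, 5.8% were called, 3.72% lower and 2.08% higher. The median log2 fold change was -0.42 over the tested members and -0.01 over all tested genes, and 62 of the 86 members had a negative value. Of 35 tested small-subunit members 14 were lower and 1 higher, with a median of -0.69. Of 51 tested large-subunit members 14 were lower and 1 higher, with a median of -0.32. Whether the subunits differ in this was not tested.

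By TPM, 50 of the 86 tested members (58.1%) lay lower in both of replicates 3 and 4 than in either of replicates 1 and 2, against 26.9% of all tested genes. The reverse held for 13 members (15.1%), against 29.6% of all tested genes. The test calls 5.8% of genes, so most such separations do not reach its threshold.

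Among small-subunit genes, Rps19, mutated in Diamond-Blackfan anaemia in humans, had 82.8 and 78.0 TPM in replicates 3 and 4, against 273 and 454 TPM in replicates 1 and 2. Its log2 fold change in counts was -2.16 ± 0.19 (SE, edgeR adjusted p = 0.0187). Rps29, a small zinc-finger protein of the 40S head, had 457 and 292 TPM in replicates 3 and 4, against 1409.6 and 1490.1 TPM in replicates 1 and 2. Its log2 fold change was -2.004 ± 0.276 (edgeR adjusted p = 0.0326). Both genes were lower in each library of replicates 3 and 4, with no overlap.

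Rps20, a protein of the 40S head, had 130 and 110 TPM in replicates 3 and 4, against 301 and 397 TPM in replicates 1 and 2, with a log2 fold change of -1.92. Rps21, a small protein of the 40S, had 177 and 148 TPM in replicates 3 and 4, against 521 and 606 TPM in replicates 1 and 2, with a log2 fold change of -1.84. Their edgeR adjusted p-values were 0.0187 and 0.0224. Others of the small subunit called lower included Rps12, Rps13, Rps14, Rps16, Rps27, Rps27a, Rps27l and Rps28. Rps27a encodes ubiquitin fused to a 40S protein, and Rps27l is a paralog of Rps27 induced by p53.

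Among large-subunit genes, Rpl22l1, a paralog that Rpl22 holds down in mouse cells, had 17.7 and 16.8 TPM in replicates 3 and 4, against 59.0 and 126 TPM in replicates 1 and 2. Its log2 fold change was -2.29 ± 0.32 (SE, edgeR adjusted p = 0.0326), the most negative of the called members. Rpl39, a short protein lining the exit tunnel, had 71.0 and 66.0 TPM in replicates 3 and 4, against 261 and 284 TPM in replicates 1 and 2, and its counts differed by -2.004 ± 0.157 on the log2 scale (edgeR adjusted p = 0.0166). In Rpl22l1, replicates 1 and 2 differed from each other by more than replicates 3 and 4 did. The other large-subunit members called lower were the stalk genes Rplp1 and Rplp2 together with Rpl9, Rpl10a, Rpl18, Rpl27, Rpl27a, Rpl34, Rpl36, Rpl36a, Rpl37a and Rpl38. Beyond the 6 members of largest fold change, the 22 other lower members had log2 fold changes between -1.70 and -0.77. Rplp0, the stalk base that carries the acidic proteins, had 274 and 337 TPM in replicates 3 and 4, against 385 and 521 TPM in replicates 1 and 2, and was not called (log2 fold change -0.56, edgeR adjusted p = 0.130).

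Rpl35 and Rps12l1 ran the other way. Rpl35, a protein at the tunnel exit, had 416 and 425 TPM in replicates 3 and 4, against 200 and 234 TPM in replicates 1 and 2. Its log2 fold change was 1.09 ± 0.15 (SE, edgeR adjusted p = 0.0326). Rps12l1 is a row that the annotation calls a pseudogene of Rps12, and had 84.6 and 94.6 TPM in replicates 3 and 4, against 9.51 and 14.8 TPM in replicates 1 and 2 (log2 fold change 2.85 ± 0.26, edgeR adjusted p = 0.0187). The authors' credibility interval for its TPM ran from 65.3 to 100.4 and from 75.5 to 110.0 in replicates 3 and 4, and from 9.48e-05 to 23.4 and from 0.768 to 29.7 in replicates 1 and 2. Its coding sequence is the same as that of Rps12, so how much of the signal belongs to it is uncertain.

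**Figure D2:**
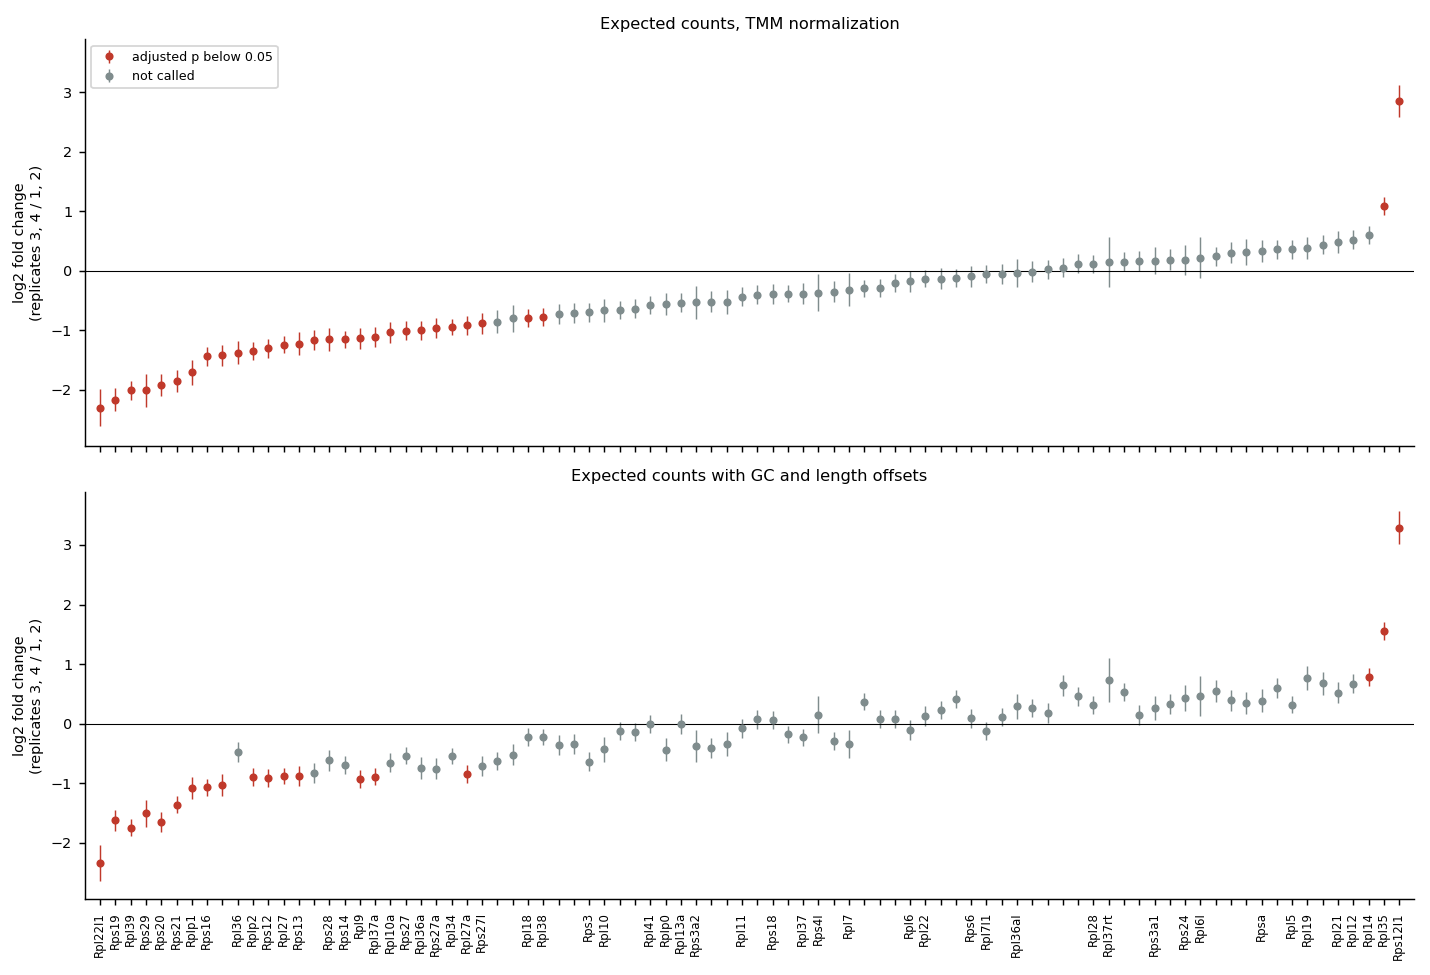
Log2 fold change of each of the 86 tested members, replicates 3 and 4 over replicates 1 and 2, with its SE, from expected counts with TMM scaling (top) and with offsets for GC content and length (bottom); red points have an adjusted p below 0.05. The genes keep the same order in both panels, and those named in the text are labelled: 28 red points lie below 0 and 2 above it in the upper panel, 16 below and 3 above in the lower one.

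The members called lower had short transcripts, and their number depended on single libraries. The 28 lower members had a median length of 595 bases, the 56 members not called 787 bases and all tested genes 2409 bases. Across the 86 members, which share their libraries, fold change and log2 length had a Spearman rho of 0.37 (Pearson 0.27). With offsets for GC content and length in each library, 16 members were lower and 3 higher (background 4.65%), 16 of the original 28 remained called, and the members' median became -0.13, against 0.03 for all genes. The part of length and GC content in the difference was not tested beyond this. Without replicate 3 and without replicate 4, the members' median was -0.52 and -0.37, against -0.02 over all tested genes in both fits. In neither of these fits, which keep 1 library on that side, did edgeR call any member or any gene. Without replicate 1 it called 14 members (background 1.4%) and without replicate 2 it called 26 (background 5.44%). DESeq2 on all 4 libraries called 42 (background 15.6%), and edgeR on the kallisto-layout counts called 28 of the 83 members it tested (background 4.97%).

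The scaled read counts and the length-corrected levels did not always go together, and the transcripts assigned to some genes differed between the pairs. The next 3 genes were chosen after their values were seen. Rplp2, a partner of Rplp1 in the stalk, differed by -1.35 in counts on the log2 scale (edgeR adjusted p = 0.0282). Its TPM were 346 and 338 in replicates 3 and 4, against 315 and 391 in replicates 1 and 2, and overlapped. Its transcript of 421 bases, Rplp2-203, had 309 and 309 TPM in replicates 3 and 4, against 84.8 and 115 TPM in replicates 1 and 2. The transcript of 964 bases, Rplp2-201, had 34.9 and 26.3 TPM in replicates 3 and 4, against 215 and 263 TPM in replicates 1 and 2. In these tables the short form led in replicates 3 and 4, and the long form in replicates 1 and 2. In the kallisto layout of replicate 2 the short form led, with 168 TPM, against 151 TPM of the long form.

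In Rps3, a 40S protein at the mRNA entry site, the coding transcript Rps3-202 of 952 bases had 1.12 and 0.13 TPM in replicates 3 and 4, against 54.8 and 64.0 TPM in replicates 1 and 2. In Rpl13a, a 60S protein also known for silencing inflammatory mRNAs in interferon-treated human myeloid cells, the nonsense-mediated decay transcript Rpl13a-205 had 5.52 and 6.35 TPM in replicates 3 and 4, against 113 and 174 TPM in replicates 1 and 2. Another decay transcript of the gene, Rpl13a-202, ran the opposite way, with 47.3 and 51.6 TPM in replicates 3 and 4, against 0 and 7.64 TPM in replicates 1 and 2, and so did Rpl13a-212, but in the kallisto layout both had at most 1.91 TPM in any library. For Rplp2-203, Rplp2-201, Rps3-202 and Rpl13a-205 the kallisto-layout values of the pairs also did not overlap and differed in the same direction. No test was run on transcripts.

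**Figure D3:**
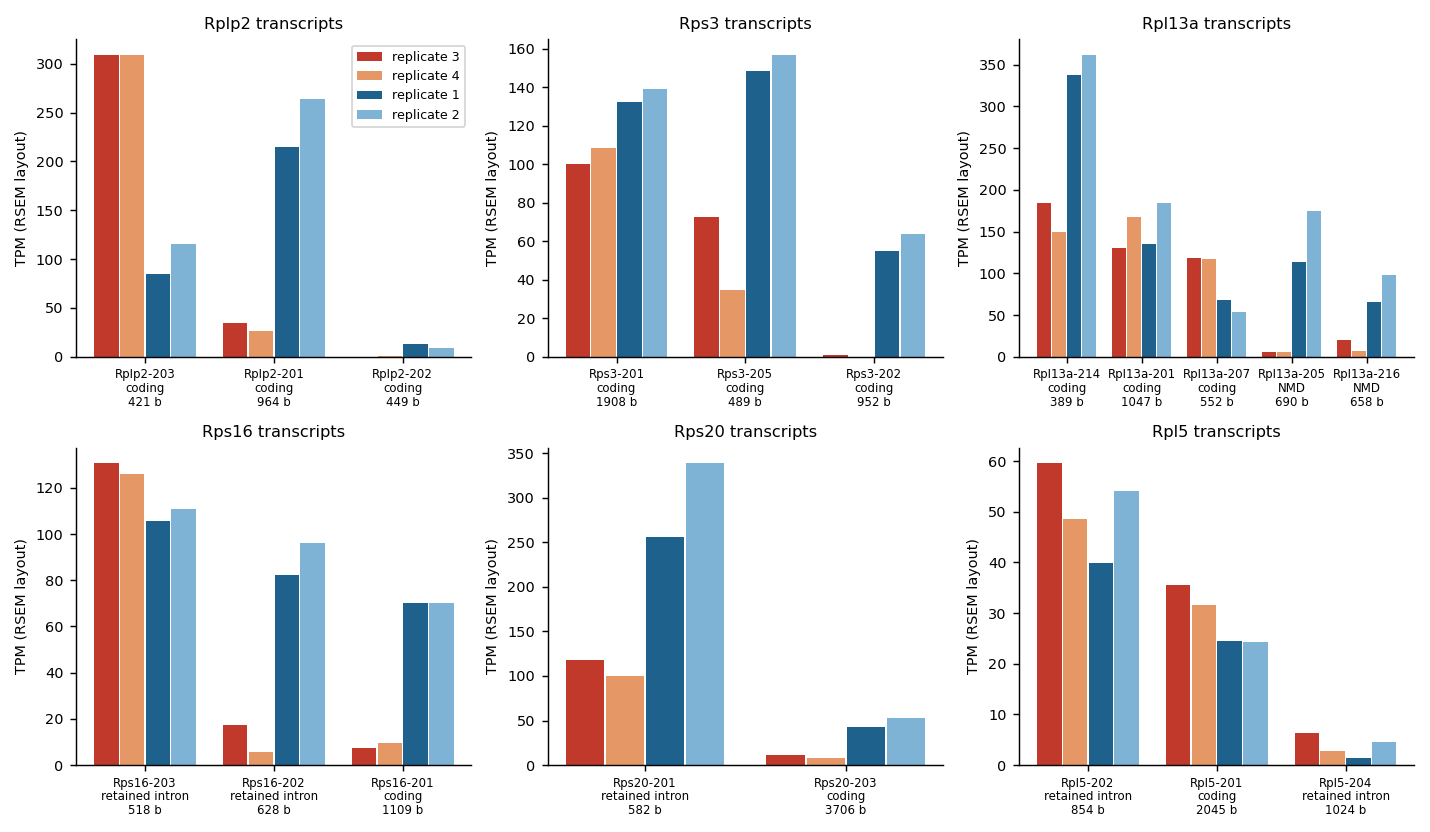
TPM in the RSEM-layout tables of the leading transcripts of Rplp2, Rps3, Rpl13a, Rps16, Rps20 and Rpl5 in each library (red and orange, replicates 3 and 4; dark and light blue, replicates 1 and 2), with each transcript's annotated type and length in bases. Rplp2-203 stands at 309 and 309 TPM in replicates 3 and 4, against 84.8 and 115 TPM in replicates 1 and 2, and Rplp2-201 is the taller bar in replicates 1 and 2.

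Few of the members' transcripts by abundance were of the retained-intron or nonsense-mediated decay kind. Of 512 member transcripts, 176 are annotated as retained intron and 25 as nonsense-mediated decay. Together they took 3.55 and 3.51% of the members' TPM in replicates 3 and 4, against 3.63 and 4.09% in replicates 1 and 2 (3.69 ± 0.27%, SD, n = 4), against 5.74 ± 1.23% over all genes. In 9 members they reached 10%, and in 4 members such a transcript led. They took 89.1 ± 3.4% of Rps20, nearly all as the retained-intron transcript Rps20-201. They took 84.0 ± 11.9% of Rps16, 66.1 ± 4.4% of Rpl5 and 45.7 ± 17.3% of Rpsa, the laminin receptor and 40S protein. In the kallisto layout the share in Rpsa was 78.5 ± 1.6%, so the assignment to its transcripts differed between the methods.

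The authors quantified each library by a second route, in tables with the column layout of kallisto, and for several members the routes disagreed by an order of magnitude. Ratios below are kallisto-layout TPM over gene-table TPM, with 1 added to both, tested against equality over the 4 libraries with limma. Of 87 members tested, 23 were lower in the kallisto layout and 1 higher. Over 12757 genes tested, 10.7% were called, 3.29% lower and 7.39% higher. The median log2 ratio was -0.31 over the tested members and -0.12 over all tested genes. The number called depended on the scaling. The total count of the kallisto-layout tables was 1.07 and 1.06 times that of the gene tables in replicates 3 and 4, against 1.31 and 1.32 times in replicates 1 and 2. With ratios centred on each library's median, 64 members were lower and 1 higher (background 27.0%), and the members' median was -0.19.

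The members apart at least 2-fold in all 4 libraries were 7, all lower in the kallisto layout: Rps12l1, Rps12, Rpl12, Rps3a2, Rpl5, Rpl10 and Rpl6l. Over all tested genes 1.15% were lower and 3.5% higher to that extent. Rps12, a 40S protein, had 16.9, 14.02, 14.7 and 23.95 TPM in the kallisto layout of replicates 3, 4, 1 and 2, against 319, 296, 649 and 808 TPM in the gene tables (mean log2 ratio -4.71). Rpl12, part of the base of the stalk, had 6.60, 7.48, 6.76 and 11.5 TPM in the kallisto layout, against 204, 231, 143 and 187 TPM in the gene tables (-4.41). Rpl5, which carries the 5S rRNA, had 16.2, 8.39, 6.43 and 12.7 TPM in the kallisto layout, against 104, 85.2, 68.8 and 88.2 TPM in the gene tables (-2.94). The SE of the mean log2 ratio was 0.22 for Rps12, 0.17 for Rpl12 and 0.14 for Rpl5. Rps12l1 had a mean log2 ratio of -5.09 and Rps3a2 of -3.13. Of the 87 tested members, Rpl37rt (1.02), Rpsa (0.06) and Rpl7l1 (0.05) had positive mean ratios, and Rpl41 (-0.00) and Rpl21 (-0.04) lay next to them.

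Near-identical copies elsewhere in the genome were high in the kallisto layout where several of these members were low. Copies were other annotated genes with at least 95% identity to a member transcript over at least 150 aligned bases and 60% of the shorter sequence. There were 630 of them, belonging to 79 members, with 598 annotated as processed pseudogenes and 28 identical over the aligned bases. Members that are copies of other members made up 7. Coding stretches from GENCODE M21 transcripts are given to show how alike the copies are. Capitals mark bases that differ from the member named first in each family, and coding bases are counted from 1 at the A of the start codon.
Rps12, chromosome 10, coding bases 1 to 30: atggccgaggaaggcatagctgctggaggt
Rps12-ps3, chromosome 19, the same positions: atggccgaggaaggcatagctgctggaggt
Rps12l1, chromosome 7, the same positions: atggccgaggaaggcatagctgctggaggt
Rpl12, chromosome 2, coding bases 1 to 30: atgccgcccaagttcgaccccaacgaggtc
Gm10275, chromosome 10, the same positions: atgccgcccaagttcgaccccaacgaggtc
Rpl5, chromosome 5, coding bases 1 to 30: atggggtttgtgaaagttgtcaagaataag
Gm15500, chromosome 7, the same positions: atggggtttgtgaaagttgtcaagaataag
Rpl10, chromosome X, coding bases 1 to 30: atgggccgccgccccgcccggtgttaccgg
Rpl10-ps3, chromosome 9, the same positions: atgggccgccgccccgcccggtgttaccgg
Rps3a1, chromosome 3, coding bases 639 to 668: aaaagtaaaaatgctgaagaaacccaagtt
Rps3a2, chromosome 14, the same positions: aaaagtTaaaatgctgaagaaacccaagtC
Rpl6, chromosome 5, coding bases 460 to 489: cccggaactgtcctgatcatcctcactggg
Rpl6l, chromosome 10, the same positions: cccCgGactCtcctgatcatcctcGctggA

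The 3 genes of the Rps12 family had no mismatch over 396 coding bases, the Rpl12 pair none over 495, the Rpl10 pair none over 642 and the Rpl5 pair none over 891. Rps3a2 differed from Rps3a1 at 4 of 792 coding bases and Rpl6l from Rpl6 at 11 of 871. In the kallisto layout Rps12-ps3 (chr19:59322290-59322783) had 384, 369, 624 and 775 TPM in replicates 3, 4, 1 and 2, against 5.41, 6.15, 46.1 and 60.2 TPM in the gene tables. Gm10275, the copy of Rpl12, had 508, 578, 301 and 378 TPM in the kallisto layout, against 61.9, 59.1, 86.7 and 120 TPM in the gene tables. For Rps12 and Rpl12 the largest row of the family was the original gene in the gene tables and the copy in the kallisto layout. For Rpl5 the copy Gm15500 led in both, with 498, 482, 243 and 296 TPM in the kallisto layout and 398, 389, 260 and 322 TPM in the gene tables.

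With copies summed, the routes came closer together for Rps12, Rpl12, Rpl5 and Rpl10, but not for most members. Of 82 families, the mean log2 ratio lay closer to 0 than that of the member alone in 24, farther from 0 in 53 and at the same value in 5. This count takes in shifts of any size, such as that of Rps24 from -0.370 alone to -0.375 with copies. The median log2 ratio was -0.306 for the member alone and -0.298 for the family. The Rps12 family had 557 ± 200 TPM in the kallisto layout, against 600 ± 237 TPM in the gene tables (SD, n = 4). The Rpl10 family had 726 ± 203 TPM in the kallisto layout, against 915 ± 372 TPM in the gene tables, and the Rpl5 family 391 ± 131 TPM, against 429 ± 77.3 TPM. The Rpl12 family had 501 ± 126 TPM in the kallisto layout, against 322 ± 32.3 TPM in the gene tables, a mean log2 ratio of 0.61 where Rpl12 alone had -4.41. Of 82 families tested, 0 differed 2-fold in all 4 libraries (background 0.87% lower and 3.49% higher), where the single members gave 7. Of those 7, Rps12l1, Rps3a2 and Rpl6l were joined to Rps12, Rps3a1 and Rpl6, so they could not be counted on their own. Among the 82 families limma called 12 lower and 2 higher (background 10.3%), or 55 lower and 4 higher with centred ratios (background 27.0%). Several families lay farther apart than the member alone. The mean log2 ratio of the Rps28 family was -0.85 and that of Rps28 alone -0.23, and the Rps29 family had -0.68 where Rps29 alone had -0.41. For Rpl28 the sign turned, with 0.74 for the family and -0.54 for the gene alone. Gm10076, a long intergenic RNA row with a copy of Rpl41, had at most 4.01 TPM in the kallisto layout. Its TPM in the gene tables came to 744 and 928 in replicates 3 and 4, against 818 and 985 in replicates 1 and 2. With it the family's mean log2 ratio was -0.91, whereas that of Rpl41 alone was -0.00.

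**Figure D4:**
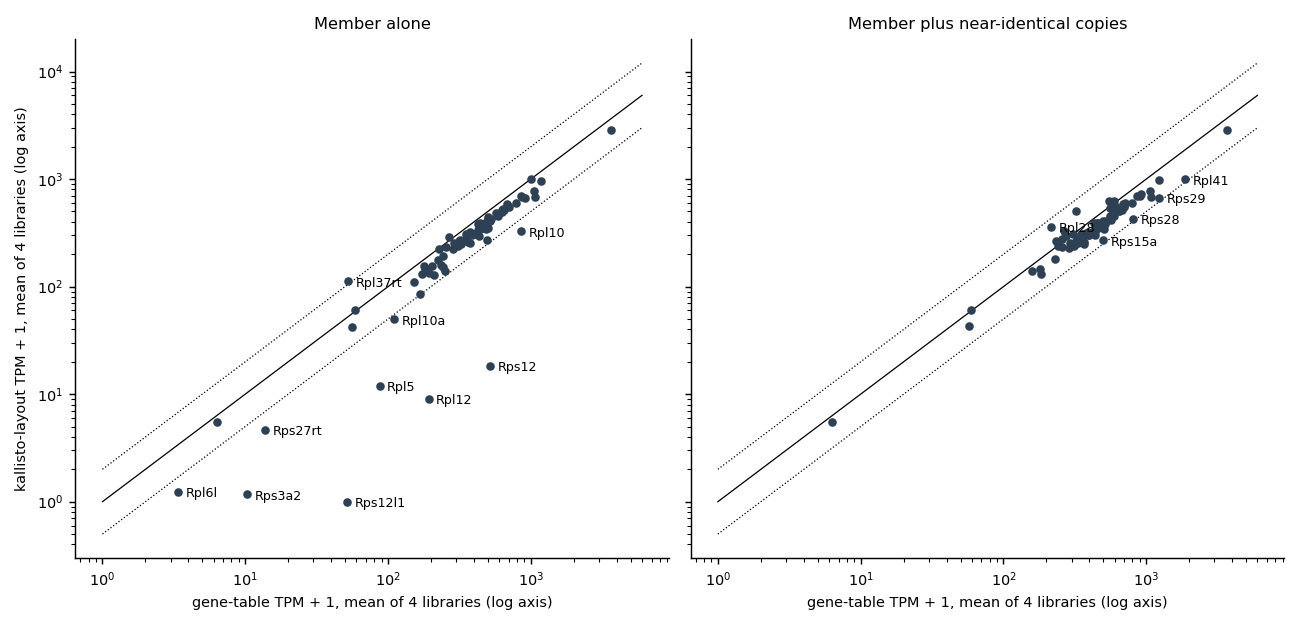
Mean TPM + 1 over the 4 libraries in the kallisto layout (vertical) against the gene tables (horizontal), both on log axes, for each member alone (left) and each member with its near-identical copies (right); the solid line marks equality and the dotted lines a 2-fold difference. Rps12, Rpl12, Rpl5 and Rps12l1 lie far below the lines on the left, and no family lies so far off on the right.

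**Figure D5:**
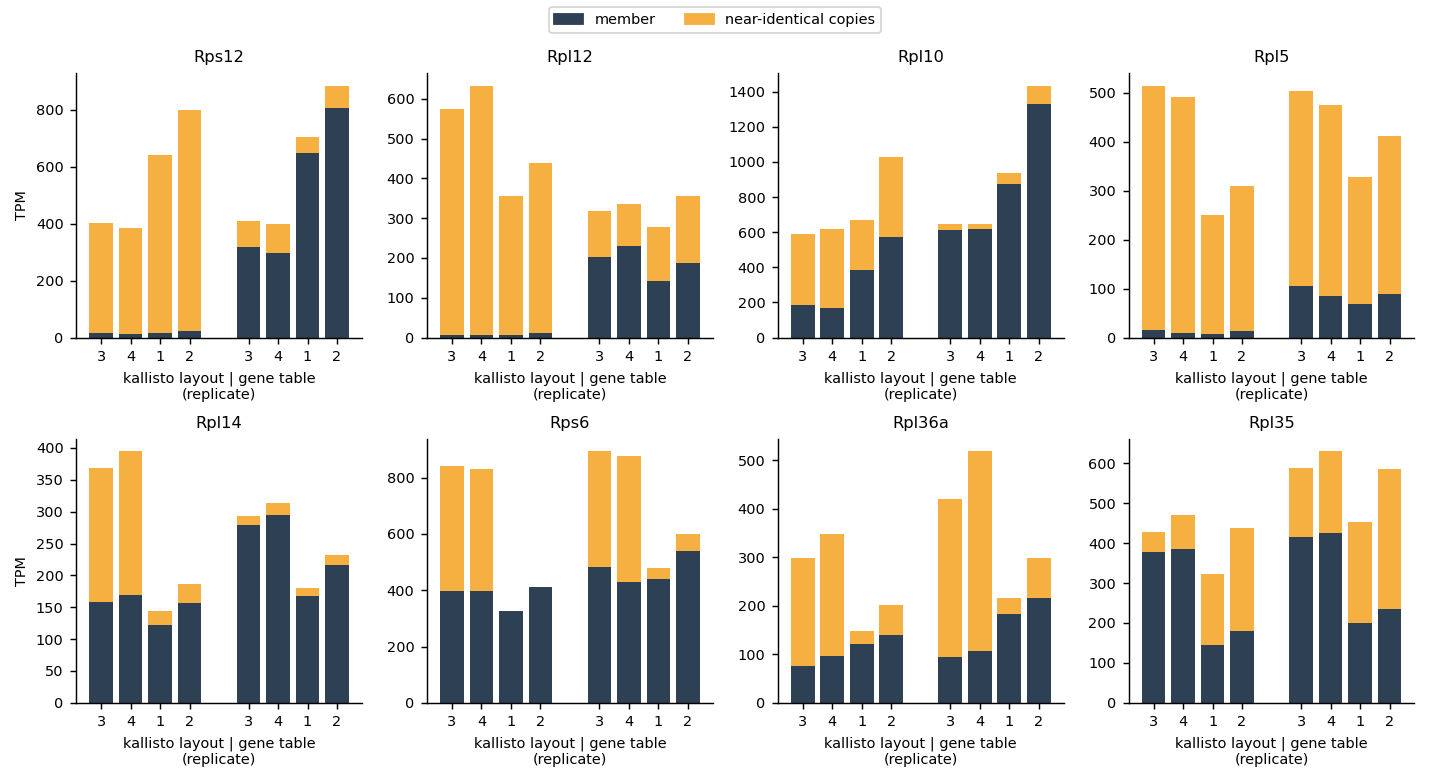
TPM of 8 members (dark) stacked with their near-identical copies (orange), in the kallisto layout on the left and the gene tables on the right of each panel, replicates 3, 4, 1 and 2 in that order. For Rps12 the bars are nearly all copy in the kallisto layout, whereas in the gene tables the member takes 74.3 to 92.1% of them. Their totals are 404, 385, 640 and 801 TPM in the kallisto layout, against 411, 398, 705 and 885 TPM in the gene tables.

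Copies were also compared between the pairs of libraries. The 623 copies that are not members had 4693 and 4906 TPM in replicates 3 and 4, against 4778 and 6090 TPM in replicates 1 and 2 and the pairs overlapped. Of 54 such copies that passed the count filter, 13 were lower and 3 higher in replicates 3 and 4 (background 3.72% lower and 2.08% higher), with a median log2 fold change of -0.77. Among the lower ones, Rpl9-ps6 had 1.79 and 2.65 TPM in replicates 3 and 4, against 18.9 and 22.2 TPM in replicates 1 and 2 (log2 fold change -3.21, edgeR adjusted p = 0.0224). Rpl28-ps1 had 4.06 and 5.56 TPM in replicates 3 and 4, against 38.1 and 43.2 TPM in replicates 1 and 2 (-3.12, edgeR adjusted p = 0.0224). The 3 higher copies were Rps6-ps4, Rpl36a-ps2 and Gm10095. Rps6-ps4, a copy of Rps6, the 40S protein phosphorylated downstream of mTOR, had 412 and 447 TPM in replicates 3 and 4, against 39.0 and 60.9 TPM in replicates 1 and 2 (log2 fold change 3.12, edgeR adjusted p = 0.0144). Rpl36a-ps2 had 326 and 412 TPM in replicates 3 and 4, against 32.7 and 83.2 TPM in replicates 1 and 2 (2.58, edgeR adjusted p = 0.0326). Gm10095, a copy of Rpl21, had 135 and 90.2 TPM in replicates 3 and 4, against 9.83 and 5.75 TPM in replicates 1 and 2 (3.82, edgeR adjusted p = 0.0277). In the kallisto layout Gm10095 had at most 3.12 TPM, whereas Rps6-ps4 had 440 and 432 TPM in replicates 3 and 4, against 0 TPM in both of replicates 1 and 2.

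With counts of each member summed with those of its copies, edgeR called 24 of 82 families lower and 0 higher (background 5.21%). Rpl36a, at -1.001 alone (94.9 and 107 TPM in replicates 3 and 4, against 184 and 215 TPM in replicates 1 and 2), had 0.037 with its copies and 0.058 with its copies in the kallisto layout, and lost its call. Rpl35 had 0.71 with its copies, among them Gm2000, and was no longer called (edgeR adjusted p = 0.0597). Rps19, Rpl22l1 and Rpl39 were called at the same fold change with and without copies, to within 0.01. Rps6, at -0.09 alone, had 0.59 with its copies (edgeR adjusted p = 0.0904). Members that share reads with a copy are therefore uncertain singly.

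Between the pairs of libraries the ratio of the routes differed too, and the number of calls depended on the scaling. Before centring, limma called 74 of the 87 members, 66 with a higher and 8 with a lower ratio in replicates 3 and 4 (background 70.9%), with a median difference of 0.30, against 0.36 for all genes. With centred ratios, Rpl14 (-0.68) and Rpl37 (-0.97) were called (background 0.682%). Rpl14 encodes a 60S protein and has the copy Rpl14-ps1, which in the kallisto layout had 211 and 225 TPM in replicates 3 and 4, against 22.2 and 29.8 TPM in replicates 1 and 2. With families summed and centred, limma called 0 of 82 (background 0.229%). At an unadjusted p below 0.05 it had 40 of the 82, against 3805 of 12639 genes.

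Pairs of a paralog and its parent were compared within each library as log2((TPM + 1)/(TPM + 1)), in 10 pairs. In each pair the sign was the same in all 4 libraries, which gives p = 0.125 by a two-sided exact sign-flip permutation test, the smallest that 4 libraries allow. Rpl36al, an autosomal intronless paralog of Rpl36a, was the only one of these 10 paralogs above its parent, with a log2 ratio of 1.77 and 1.13 in replicates 3 and 4, against 0.27 and 0.71 in replicates 1 and 2. Rpl36a can share reads with Rpl36a-ps2, so this ratio is uncertain. Summed with its copies, Rpl36a had 421 and 519 TPM in replicates 3 and 4, against 217 and 299 TPM in replicates 1 and 2. Rpl36al had 326 and 234 TPM in replicates 3 and 4, against 222 and 354 TPM in replicates 1 and 2. With copies counted, Rpl36al thus lay below its parent in replicates 3 and 4 and above it in replicates 1 and 2. The log2 ratio of Rps27l over Rps27 was nearly the same in every library (-2.56 ± 0.06, SD, n = 4), although both genes were called lower in replicates 3 and 4. The log2 ratio of Rpl22l1 over Rpl22 was -3.90 and -4.06 in replicates 3 and 4, against -2.24 and -1.35 in replicates 1 and 2. Rpl7l1, related to a yeast factor of 60S assembly, had a log2 ratio of -2.28 ± 0.58 over Rpl7.

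Rps4l, Rps3a2 and Rps27rt had log2 ratios over their parents of -5.88 ± 0.30, -5.81 ± 0.39 and -6.83 ± 1.12. For Rpl39l, Rpl3l and Rpl10l, all below 1 TPM, the added 1 TPM sets the size of the ratio, and only the order is known. Rps27rt, identical to Rps27 over 341 bases, had 2.35 and 2.34 TPM in replicates 3 and 4, against 19.01 and 27.5 TPM in replicates 1 and 2, and did not pass the count filter. Rpl37rt, a near copy of Rpl37, had 81.6 and 38.4 TPM in replicates 3 and 4, against 44.9 and 41.6 TPM in replicates 1 and 2.

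Fau and Rack1, ribosomal components outside the naming rule, were lower in replicates 3 and 4. Fau, which encodes a ubiquitin-like protein fused to the 40S protein S30, had 461 and 490 TPM in replicates 3 and 4, against 653 and 795 TPM in replicates 1 and 2 (log2 fold change -1.11, edgeR adjusted p = 0.0324). Rack1, the signalling scaffold of the 40S head, differed by -0.89 on the log2 scale (edgeR adjusted p = 0.0423). With the offsets for GC content and length, Rack1 remained called (-0.83) and Fau did not (-0.42).

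The lists of translation factors and of ribosome biogenesis factors had medians above 0. Of 22 translation factors, many of them TOP mRNAs, 2 were higher and 1 lower (background 2.08% higher and 3.72% lower), with a median of 0.09. Pabpc1, the poly(A)-binding protein, had 1263 and 1432 TPM in replicates 3 and 4, against 379 and 429 TPM in replicates 1 and 2 (log2 fold change 1.10, edgeR adjusted p = 0.0448), and Nap1l1, a histone chaperone whose mRNA is a TOP mRNA, had 0.84. Eif6, which keeps 60S subunits from joining too early, had -1.17. Eef1a1, the factor that brings tRNA to the ribosome, and Tpt1 were the most abundant at 2901 ± 381 and 1530 ± 220 TPM and were not called.

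Of 38 ribosome biogenesis factors 4 were higher and 0 lower (background 2.08% higher and 3.72% lower), with a median of 0.43. Ncl, a nucleolar RNA-binding protein, had 233 and 194 TPM in replicates 3 and 4, against 85.9 and 105 TPM in replicates 1 and 2 (log2 fold change 1.09, edgeR adjusted p = 0.0439). Nop14 (1.00) and Ltv1 (0.83), which act in 40S assembly, and Nolc1 (0.70), a nucleolar phosphoprotein, were the other 3. Npm1, the most abundant of the list, had 455 and 222 TPM in replicates 3 and 4, against 149 and 206 TPM in replicates 1 and 2, and was not called (0.58, edgeR adjusted p = 0.320). With offsets for GC content and length, Eif6, Ncl, Nop14 and Ltv1 were still called, whereas Pabpc1, Nap1l1 and Nolc1 were not (edgeR adjusted p = 0.0585, 0.0620 and 0.0508). Fbl (0.99), Nhp2 (0.92), Gar1 (1.31) and the translation factor Eef1d (0.80) were called only with the offsets. The biogenesis list then had 6 higher and 0 lower, and the translation factors 1 higher and 1 lower (background 4.65% in either direction). Whether these lists differ from the members was not tested.

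Of 14 RNA polymerase I genes 1 was lower (background 3.72%), with a median of 0.19. It was Taf1c (-1.14), a subunit of the promoter selectivity factor, which was not called with the offsets (edgeR adjusted p = 0.0895). Of 16 genes of mTOR and TOP control edgeR called 0 (background 5.8%), and DESeq2 called 1 lower (background 15.6% in either direction). At an unadjusted p below 0.05 edgeR had 3 of the 16, against 3415 of all 11991 genes tested. Mtor had 11.2 ± 2.1 TPM and Larp1 64.5 ± 6.0 TPM. Of the 78 mitochondrial ribosomal proteins, made in the cytosol for a different ribosome, 2 were higher (Mrps15 and Mrps5) and 6 lower (Mrps24, Mrpl52, Mrps14, Mrps16, Mrpl14 and Mrpl57), with a median of -0.17. Over all tested genes 2.08% were higher and 3.72% lower. Mrps24 had 12.7 and 8.74 TPM in replicates 3 and 4, against 40.9 and 40.5 TPM in replicates 1 and 2 (log2 fold change -1.89, edgeR adjusted p = 0.0326). With offsets, 3 mitochondrial ribosomal proteins were higher and 2 lower (background 4.65% in either direction).

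The TOP tract occurred among members called in both directions and among members not called. Among called lower members with a RefSeq promoter, 10 of 20 had the tract, against 18 of 41 members not called, a difference that was not tested. Rps27 and Rplp2, shown above with a tract, were lower, and Rpl35 with the longest run shown was higher. Rps19 and Rps12, shown without one, were lower.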

How the data were processed

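RNA of 4 macrophage libraries was measured by polyA-selected RNA-seq. Assembly mm10 and annotation GENCODE M21 underlie every table, per the deposited notes. The deposited gene and transcript tables in RSEM layout hold expected counts, TPM and a credibility interval of TPM by the authors, from an alignment to the transcriptome. The second deposited transcript tables, in kallisto layout, hold estimated counts and TPM straight from the reads. The names RSEM and kallisto follow from column headers alone; for the programs, their versions and the strand of counting, the answer is not given in the sources used here. Antisense or overlapping genes and near-identical copies can share reads.

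The members, gene lists, pairs, tests and splits were chosen with earlier results of these data known. Spike-in rows (97 rows, at most 0.128% of counts) and 26248 numeric rows (at most 3.9e-06%) were left out. Expected counts were rounded and tested with edgeR 4.0.16 under R 4.3.3, scaled by TMM and filtered by filterByExpr at its count minimum of 10, at a threshold of 0.05, for replicates 3 and 4 over replicates 1 and 2; the SE is the size of the fold change divided by the root of F. Ratios of routes, log2 with 1 TPM added, were tested with limma 3.58.1 in genes with a mean of at least 1 TPM in either route. Copies were found with blastn 2.17.0 (at least 95% identity, 150 bases, 60% of the shorter sequence). DESeq2 1.42.0 was the alternative tool; other scalings, filters, pseudocounts, offsets for GC content and length, kallisto-layout counts and leaving out each library were alternatives. On simulated data with the genes and library sizes of these files, edgeR was run over 11991 genes. It recovered 44% of genes changed by 1 log2 unit and 98% of those changed by 2. The changed genes were drawn from well-counted genes only, and the simulated spread of each gene followed the general trend with its count. Recovery of genes with low counts or a larger spread was therefore not measured. Other steps ran in Python 3.11.15 with numpy 2.4.6, pandas 2.3.3, matplotlib 3.10.9 and scipy 1.17.1. Promoter windows came from RefSeq on GRCm38.p6 and coding stretches from GENCODE M21.

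Named members were the 5 highest and 5 lowest in TPM, all members of pairs, the 5 largest ratios of routes in each direction, the 6 called members of largest fold change in each direction, and the 5 with most retained-intron or decay transcripts. Of other lists, the 3 most abundant genes and called genes could be named. Copies and any further member were chosen after their values were seen. A few genes that the rule names are not reported here.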

Additional observations from a re-analysis of the deposited data

Results flagged for a closer look

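Of 87 members with a mean of at least 1 TPM, 4 had 1 library apart from the other 3 by a Dixon ratio over its critical value for 4 samples; chance flags about 1 in 20 such groups. Rpl37rt had 81.6 TPM in replicate 3, and its nearest value was 44.9 TPM. Rpl23a had 665 TPM in replicate 1, with its nearest value at 906 TPM. Rpl29 had 376 TPM in replicate 1, with its nearest value at 483 TPM, and Rpl4 had 305 TPM there, with its nearest value at 375 TPM. Replicate 1 was also the library with 84920 TPM of the rRNA gene CT010467.1, and the part of that gene in these values was not tested. Rpl37rt is a near copy of Rpl37 and had 172, 140, 57.3 and 74.1 TPM in the kallisto layout of replicates 3, 4, 1 and 2.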

How the results depend on the processing

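Against 30 members called by edgeR (background 5.8%), offsets for GC content and length gave 19 (background 4.65%) and a median of -0.13. Leaving out 1 library gave 0 to 26 calls and a median between -0.52 and -0.37; then the lone library of a pair is assumed to vary like the others. DESeq2 called 42 members (background 15.6%), library size alone 21 (background 2.54%), no filter 38 of 91 tested (background 11.7%, over 22006 genes). The other fits, by RLE factors, TMM without the members, kallisto-layout counts, and without rRNA and mitochondrial genes, gave 28 to 30 (background 4.97 to 5.92%). Of the 30 called members, 14 were called in every alternative in which they were tested, other than leaving out a library. Rps12l1 is among these 14, but it was not tested with copies summed, where it joins Rps12. Nor was it tested on kallisto-layout counts, where it had at most 1.76e-05 TPM in any library. Rpl36a reversed with its copies summed (0.037, and 0.058 in the kallisto layout). For the ratio of routes, against 24 members (background 10.7%), no filter gave 0 (background 29 of 55450 genes) and centring 65 (background 27.0%). Summed copies gave 14 (background 10.3%), summed and centred 59 (background 27.0%), and summed with TPM rescaled 14 (background 1349 of 12768 genes). Leaving out 1 library gave 15 to 20 members, against 1130 to 1480 of 12757 genes. With no filter, limma had 58 members at an unadjusted p below 0.05, against 5772 of 55450 genes. For the difference in that ratio between pairs, against 74 (background 70.9%), no filter gave 49 (background 4866 of 55450 genes). Centring gave 2 (background 0.682%), and summed and centred 0 (background 0.229%). Leaving out 1 library, the median difference was 0.29 to 0.32 over the members, against 0.35 to 0.38 over all genes. The count 2-fold apart, 7 (background 1.15% lower), was 0 with summed copies (background 0.87% lower), also with TPM rescaled (background 0.90% lower). Without 1 library the count was 7 to 8 (background 1.22 to 1.42% lower). With summed copies Rps12l1, Rps3a2 and Rpl6l could not be counted on their own. Summed member TPM was 29804 in the kallisto layout, against 38911, and 35833 to 41112 without 1 library. The share of retained-intron and decay transcripts was 4.16% in the kallisto layout and 3.56 to 3.76% without 1 library. The small-subunit excess was 0.21 to 0.38 without 1 library. Summing copies, centring, and leaving out rRNA and mitochondrial genes from the count fit were chosen after seeing the data. No paired analysis was possible because the series has 1 group. With 2 libraries on each side, 44% of 2-fold changes in well-counted genes were recovered on simulated data, and members below 1 TPM lie near the counting floor.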
